A study of Homo sapiens with 13 samples.

Results

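The insulin-like growth factor 2 gene IGF2, its imprinted neighbour H19, the receptors IGF1R and IGF2R and the binding protein genes IGFBP2 to IGFBP7 were followed through blood-directed differentiation of human embryonic stem cells. They were chosen by gene symbol as a family of known function, 10 genes of 30844 named on the array. The rule uses no measured value, but the family was picked with earlier results of these data known. The 10 genes had 14 of the array's 47231 probes, of which 13 were detected on at least 1 array. All arrays carried RNA of the RUNX1C GFP/w line, which derives from the established embryonic stem cell line HES3 and carries a GFP reporter in 1 copy of the blood transcription factor gene RUNX1. One experiment followed unsorted cells with 1 array for each day from 0 to 8, where day 0 was the undifferentiated line kept on mouse feeder cells with FGF2, and the later days were spin embryoid bodies, cell aggregates made by centrifugation, in the serum-free medium APEL. Up to day 4 the added factors were VEGF, BMP4, activin and SCF, and from the change of medium on day 4 activin was left out while FGF2 and IGF2 protein were added. Whether day 4 cells were taken before or after that change is not stated in the sources used here. The other experiment sorted day 7 cells by the surface proteins CD34, found on endothelium and early blood cells, and CD41, found on megakaryocytes and the earliest blood cells, into CD34lo CD41lo, CD34hi CD41-, CD34lo CD41- and CD34- CD41- fractions with 1 array each. All samples shared 1 line and 1 differentiation protocol, so no other line, and no culture without IGF2 protein, stood beside them.

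IGF2 and IGF1 are small secreted growth factors that drive growth of the fetus through the receptor tyrosine kinase encoded by IGF1R. IGF2R encodes a receptor without kinase activity that takes up IGF2 for breakdown in lysosomes, and the IGFBP proteins hold IGFs outside the cell, where they can block, store or deliver them. IGF2 is read from the paternal chromosome and the long noncoding RNA H19 from the maternal one under a shared imprinting control region, and embryonic liver, yolk sac endoderm and mesenchyme are known for high IGF2 and H19.

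Levels are normalized log2 intensities of the brightest probe of each gene, and a change of 1 unit is 2-fold. A probe was called detected on an array at a detection p below 0.01. The lowest level of the detected probes, here the detection floor, lay between 5.29 and 5.73 across arrays, and a level printed as not detected is below what that array could separate from background. Between 15134 and 17833 probes were detected per array. With 1 array per day or fraction no level has an SD. A change over days is printed with the standard error of a curve fitted to the 9 days, which takes its spread from how far single days depart from that curve. Differences between fractions or neighbouring days have no replicate check. The labels place the unsorted arrays on 1 chip in day order and the sorted arrays on another, so chip and sort cannot be told apart, and chip position cannot be told apart from day. Defining markers went with the labels: all 5 markers of undifferentiated cells were detected on day 0, with NANOG and SOX2 not detected from day 5 on. The 7 endothelial markers had their highest summed linear level, 25520, in CD34hi CD41- cells, and the 8 blood markers theirs, 20725, in CD34lo CD41lo cells.

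Over the 9 days IGF2 and 5 of the 6 binding protein genes had a trend, and IGF2, IGFBP3, IGFBP4 and IGFBP5 ended at least 4.53-fold above day 0 by their arrays. A trend over days was found for 7 of the 10 genes, against 38.8% of the 17657 genes and unnamed probes tested (limma moderated F test, adjusted p below 0.05). IGF2, IGFBP3, IGFBP4, IGFBP5, IGFBP6, IGFBP7 and IGF1R made up the 7, and H19, IGF2R and IGFBP2 did not pass. The trends of IGFBP5 and IGF1R were lost in some settings. From day 0 to day 4, 2 genes rose at least 2-fold with an adjusted p below 0.05, IGF2 and IGFBP4, and 2 fell, IGFBP6 and IGFBP7, where 6.28% of all tested rose and 5.92% fell. After day 4, up to day 8, 4 rose, IGF2, IGFBP3, IGFBP6 and IGFBP7, and 0 fell, beside 4.94% and 2.64% of all tested. Over all days, 0 to 8, 5 rose, IGF2, IGFBP3, IGFBP4, IGFBP5 and IGFBP6, and 0 fell, beside 11.8% and 10.2%. The median fitted change of the 10 genes was 0.13, 0.51 and 1.15 on the log2 scale over these intervals, and that of all tested was 0.00, -0.04 and -0.04. Calls of IGF2, IGFBP3, IGFBP5, IGFBP6 and IGFBP7 over some intervals turned on the processing, as given with each gene. Between single arrays, 3 of the 10 genes were at least 2-fold higher and 2 lower on day 4 than on day 0 (9.05% and 8.92% of genes), 4 were higher and 1 lower on day 8 than on day 4 (7.85% and 6.3%), and 5 were higher and 0 lower on day 8 than on day 0 (13.5% and 12.7%).

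**Figure D1:**
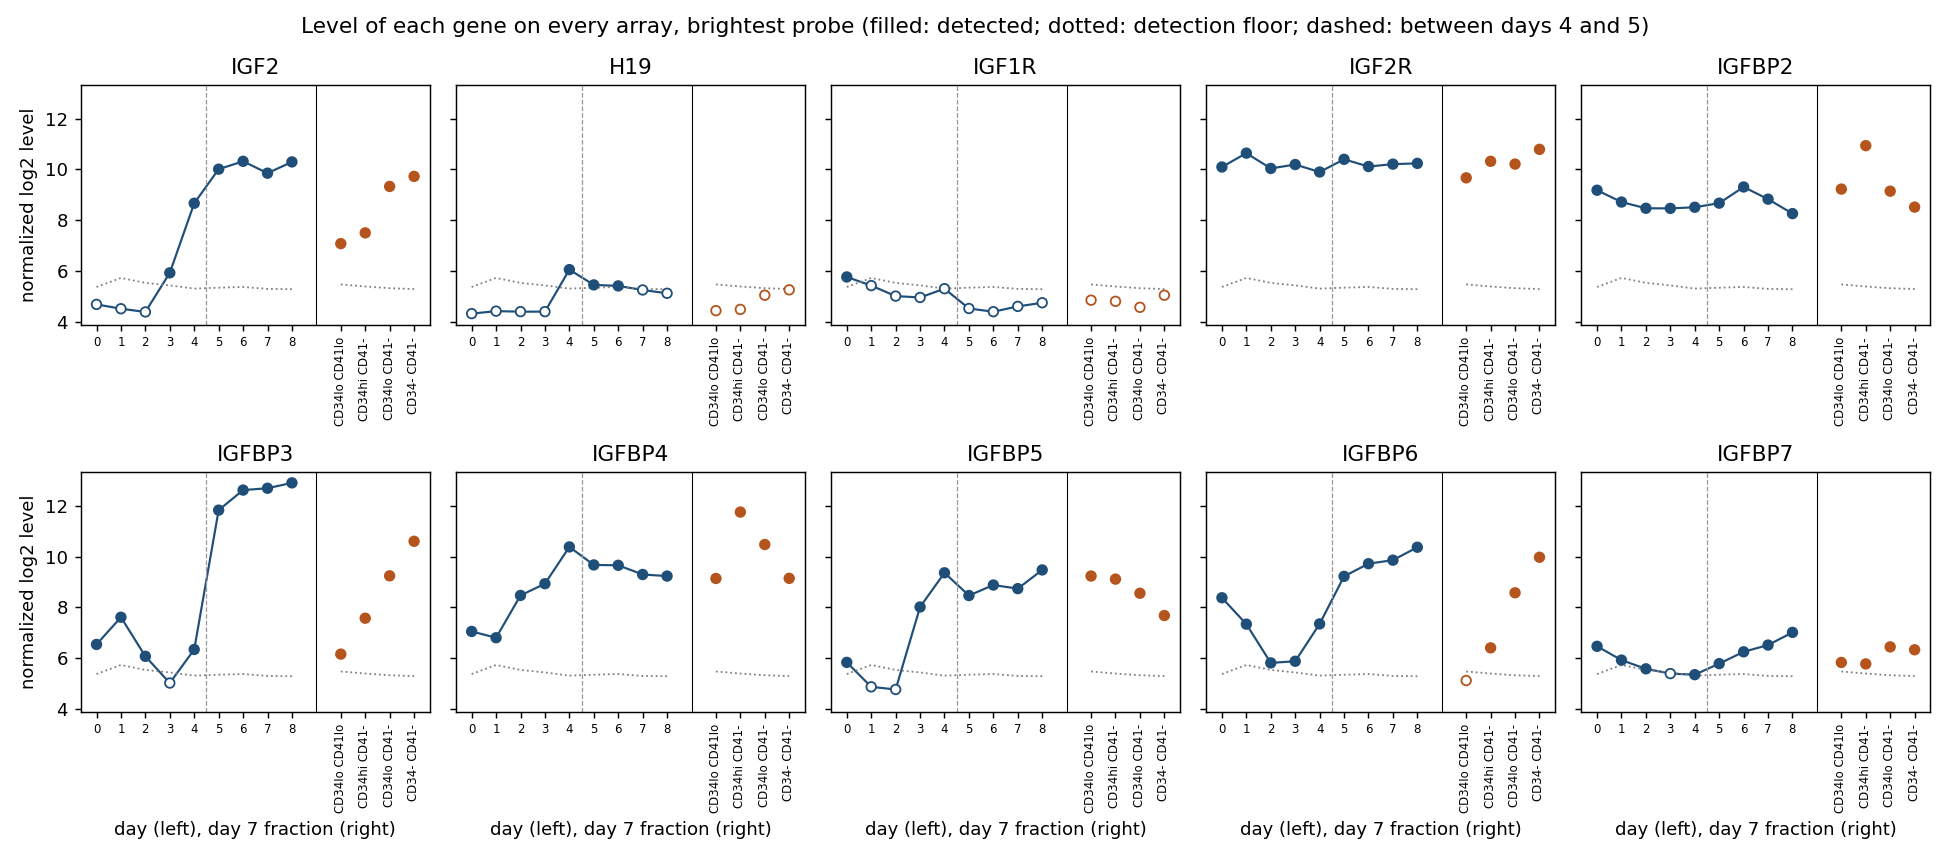
Normalized log2 level of the brightest probe of each of the 10 genes on every array, with unsorted cells by day on the left of each panel (blue, joined) and the day 7 fractions on the right (orange). Filled points were detected, open points were not, the dotted line is the detection floor and the dashed line stands between days 4 and 5, with the medium changed on day 4. IGF2 and IGFBP3 are near or below the floor on day 3 and among the higher points of their own panels from day 5 to day 8, while IGF2R stays between 9.67 and 10.79 on all arrays.

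IGF2 appeared between day 3 and day 5. Its brightest probe, ILMN_2413956, had log2 levels of 4.69, 4.52 and 4.39 on days 0, 1 and 2, all not detected. It was first detected on day 3, at 5.93, and then had 8.67 on day 4, 10.01 on day 5, 10.32 on day 6, 9.86 on day 7 and 10.30 on day 8. Every day from 4 to 8 was above every day from 0 to 3, and the levels of days 5 to 8 differed by less than the residual SD of the curve, 0.55. The array of day 4 was at least 9.83-fold above that of day 0, and 6.68-fold above that of day 3. The fitted change was 3.43 ± 0.49 (log2, SE) from day 0 to day 4 (adjusted p = 0.00258) and 5.29 ± 0.57 from day 0 to day 8 (adjusted p = 0.000361). From day 4 to day 8 it was 1.86 ± 0.49 (adjusted p = 0.0475), with a 2.54-fold step between the arrays of days 5 and 4 and no step of 2-fold after that. In bulk RNA, more cells that carry a transcript and more transcript per cell cannot be told apart. The IGF2 rise from day 4 to day 8 passed by a small margin and missed the threshold in 10 of 17 alternative settings, among them leaving out day 0 (adjusted p = 0.0521), day 1 (0.0615), day 2 (0.0531), day 3 (0.0849), day 5 (0.0851) or day 6 (0.0832). The rise from day 0 to day 4 missed it in 1 setting, without background correction (adjusted p = 0.0727), and the rise from day 0 to day 8 passed in all 16. Over those 16 settings the size of the latter ran from 5.24 to 8.18. Both sizes start from days on which IGF2 was not detected, so they depend on how background was treated.

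The other probes of IGF2 gave 2 different pictures. ILMN_1699867 was not detected up to day 3 and had 7.69, 9.09, 9.11, 8.88 and 9.23 on days 4 to 8, with a fitted change of 2.31 from day 0 to day 4 (adjusted p = 0.00882) and 4.01 from day 0 to day 8. Over the 13 arrays it followed ILMN_2413956 with a Pearson r of 0.988. ILMN_2298035 was not detected on any array, with a lowest detection p of 0.44, and which IGF2 transcripts it covers is not stated in the sources used here. INS-IGF2, the readthrough of the insulin gene into IGF2 that shares sequence with it, had 2 probes. ILMN_2328463 was detected on 0 of the 13 arrays, and ILMN_2250521 was not detected up to day 3 and had 7.31, 8.91, 8.76, 9.26 and 9.64 on days 4 to 8. The r of ILMN_2250521 with the brightest IGF2 probe was 0.963, and whether these probes separate the transcripts of the 2 genes is not stated in the sources used here. INS itself was not detected on any array, and neither was the miRNA gene MIR483, which lies within IGF2. The antisense gene IGF2-AS, named IGF2AS in the array file, was detected on the arrays of unsorted day 7 and of CD34- CD41- cells, at 5.32 on each, just above the floor.

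**Figure D2:**
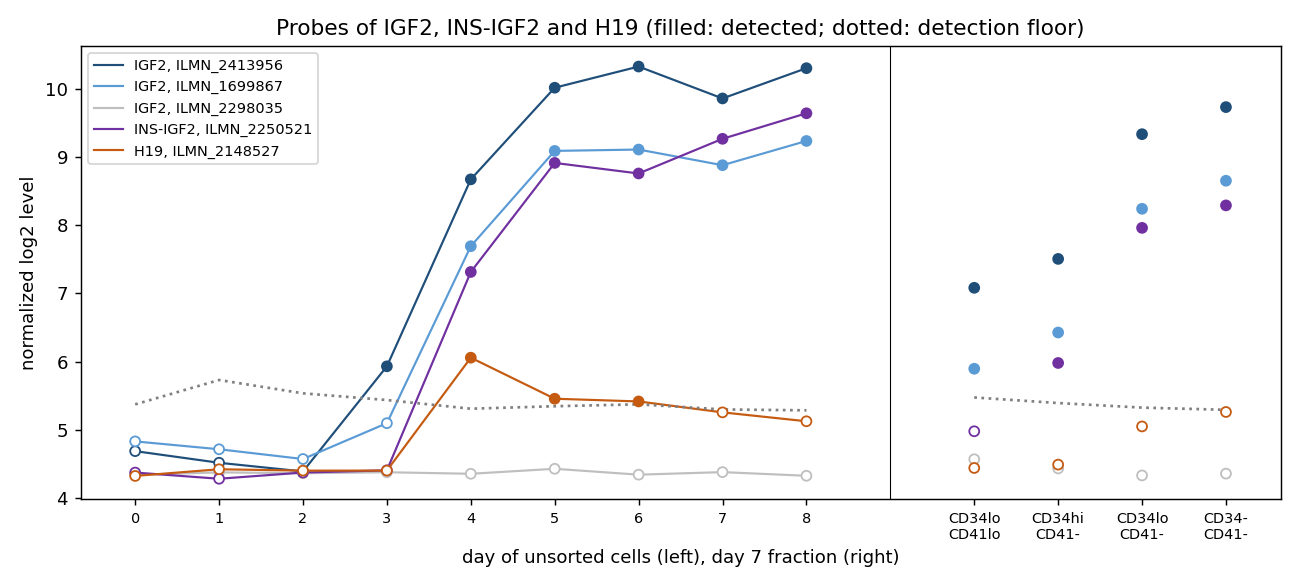
Normalized log2 level of the 3 IGF2 probes, the detected INS-IGF2 probe and the H19 probe on each array, unsorted days on the left and day 7 fractions on the right. Filled points were detected and the dotted line is the detection floor. The upper 3 curves leave the floor on day 3 or day 4, the third IGF2 probe never does, and H19 is above it on days 4, 5 and 6.

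H19 appeared on day 4 and stayed close to the floor. Its probe had 4.32, 4.42, 4.40 and 4.40 on days 0 to 3, all not detected, then 6.06 on day 4, 5.46 on day 5 and 5.42 on day 6, and 5.26 and 5.12 on days 7 and 8, not detected again. Day 4 was the high point and lay at least 1.61-fold above day 0. The trend over days had an adjusted p of 0.0512 and the fitted changes were 0.97 ± 0.40 from day 0 to day 4 (adjusted p = 0.143), -0.29 ± 0.40 from day 4 to day 8 (0.743) and 0.69 ± 0.47 from day 0 to day 8 (0.321), so none passed. The H19 trend passed in 9 of 18 alternative settings, without day 3 (adjusted p = 0.0480) and without day 4 (0.00485) among them. Over the 9 days the levels of IGF2 and H19 had a Pearson r of 0.82 and a Spearman rho of 0.67, as a description of arrays that share a line and a chip. After day 4 the values of the pair parted: IGF2 was at least as high on each of days 5 to 8 as on day 4, while each of those H19 levels was below that of day 4.

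No fitted change of a receptor gene passed. IGF1R, the receptor that carries the growth signal, was detected on day 0 alone, at 5.77, and was not detected on days 1 to 8, with values of 5.43, 5.01, 4.96, 5.31, 4.53, 4.40, 4.61 and 4.75. Its trend passed (adjusted p = 0.0349) but none of its fitted changes did: -0.86 ± 0.29 from day 0 to day 4 (adjusted p = 0.0762), -0.13 ± 0.29 from day 4 to day 8 (0.841) and -1.0 ± 0.33 from day 0 to day 8 (0.0549). The IGF1R trend was lost in 9 of 17 settings, among them without day 0 (0.151), day 1 (0.0727), day 3 (0.0555), day 5 (0.0780), day 6 (0.0881), day 7 (0.0867) or day 8 (0.0655), and without day 4 its fall of 1.11 from day 0 to day 4 passed (adjusted p = 0.0119). IGF2R, the clearing receptor, was detected on all 13 arrays, with log2 levels of 10.10, 10.64, 10.04, 10.19, 9.90, 10.40, 10.12, 10.21 and 10.24 on days 0 to 8. No day stood apart, and its trend did not pass (adjusted p = 0.968), with a fitted change of -0.06 ± 0.33 from day 0 to day 8. The remaining ligand and receptor genes of the pathway, IGF1, INS, INSR and INSRR, each had a probe on the array, and 0 of the 4 were detected on any array. A probe that was not detected does not show that its transcript was absent. The IGF2 probe ILMN_2298035 was not detected on any array, while another IGF2 probe reached 10.32. IGF1R was read by its probe ILMN_1675048 alone.

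Among the binding protein genes IGFBP3 and IGFBP6 rose after day 4 and were lower in CD34hi CD41- than in CD34- CD41- cells, while IGFBP4 and IGFBP5 had reached high levels by day 4 and were higher there. Their promoters are shown so that the sequences of these 4 genes stand beside their levels, and the genes of a pair did not move alike throughout: IGFBP4 and IGFBP5 parted in CD34lo CD41lo cells, at 1.0-fold and 2.94-fold of CD34- CD41- cells. The printed windows run from 250 bases before to 50 bases after the start in RefSeq's GRCh38.p14 table and are written 5′ to 3′ along the gene's strand. IGFBP3 is at chr7:45921223-45921522 on the minus strand, IGFBP6 at chr12:53097417-53097716 on the plus strand, IGFBP4 at chr17:40443200-40443499 on the plus strand and IGFBP5 at chr2:216695500-216695799 on the minus strand. Capitals mark matches, on either strand, to TATAAA for a TATA box, GGGCGG for a GC box, AGATAA for the site of blood and endoderm GATA factors, GGAAG for the core bound by ETS factors and CACGTG for an E box.
IGFBP3: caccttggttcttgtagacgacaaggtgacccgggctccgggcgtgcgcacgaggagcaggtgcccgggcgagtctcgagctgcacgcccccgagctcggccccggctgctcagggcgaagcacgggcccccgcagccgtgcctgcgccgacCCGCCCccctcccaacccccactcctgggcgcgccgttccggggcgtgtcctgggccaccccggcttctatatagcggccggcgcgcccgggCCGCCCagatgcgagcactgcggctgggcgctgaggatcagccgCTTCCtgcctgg
IGFBP6: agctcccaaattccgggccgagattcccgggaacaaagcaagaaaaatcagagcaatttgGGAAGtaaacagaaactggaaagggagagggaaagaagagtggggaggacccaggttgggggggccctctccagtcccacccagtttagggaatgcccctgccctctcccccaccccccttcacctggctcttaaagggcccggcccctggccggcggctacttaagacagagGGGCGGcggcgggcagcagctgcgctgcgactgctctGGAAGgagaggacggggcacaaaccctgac
IGFBP4: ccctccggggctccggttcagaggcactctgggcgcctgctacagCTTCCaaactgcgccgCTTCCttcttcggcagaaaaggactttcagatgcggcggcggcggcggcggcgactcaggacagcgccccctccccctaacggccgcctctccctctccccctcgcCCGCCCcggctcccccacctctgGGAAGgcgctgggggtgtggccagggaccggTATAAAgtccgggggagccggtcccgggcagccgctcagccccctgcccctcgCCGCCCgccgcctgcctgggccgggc
IGFBP5: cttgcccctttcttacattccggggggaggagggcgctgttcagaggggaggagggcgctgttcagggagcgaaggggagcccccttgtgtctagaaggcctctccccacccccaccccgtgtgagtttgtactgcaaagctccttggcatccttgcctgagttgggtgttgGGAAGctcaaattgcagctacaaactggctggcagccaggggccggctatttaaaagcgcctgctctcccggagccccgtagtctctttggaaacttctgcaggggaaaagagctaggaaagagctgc
The IGFBP3 window holds 2 GC boxes and 1 ETS core, that of IGFBP6 1 GC box and 2 ETS cores, that of IGFBP4 1 TATA box, 2 GC boxes and 3 ETS cores, and that of IGFBP5 1 ETS core. None of the 4 holds the GATA or E box letters. Among 35116 promoters of this length 11.5% hold TATAAA, 45.0% GGGCGG, 10.3% AGATAA, 71.9% GGAAG and 7.26% CACGTG, and GGAAG and GGGCGG do not overlap in these windows. IGFBP3 has 36 CpG dinucleotides and IGFBP4 30, against 12 in IGFBP6 and 9 in IGFBP5, where the median of all promoters is 14. These matches describe letters, not bound sites. Promoter entries were found for 8 of the 10 genes, and IGF2 and IGFBP7 were not among them.

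IGFBP3, the main carrier of IGFs in blood plasma, made the steepest step of the family. Its brightest probe, ILMN_1746085, had log2 levels of 6.54, 7.61 and 6.07 on days 0, 1 and 2, was not detected on day 3 at 5.02, and had 6.34 on day 4. On day 5 it had 11.83, and then 12.62, 12.69 and 12.90 on days 6, 7 and 8. Every day from 5 to 8 was above every day from 0 to 4, with the whole step between 2 arrays: day 5 was 44.9-fold above day 4. The medium change of day 4, which left out activin and added FGF2 and IGF2 protein, came before day 5 in any case. A culture without that change is not among these samples, so these factors and the day cannot be told apart. The fitted change was 4.93 ± 1.19 from day 4 to day 8 (adjusted p = 0.0343) and 5.33 ± 1.38 from day 0 to day 8 (adjusted p = 0.0208), and the array of day 8 was 94.4-fold above that of day 4 and 82.3-fold above that of day 0. A smooth curve followed this step poorly, with a residual SD of 1.41 and day 4 lying 1.73 below the curve. The IGFBP3 rise from day 4 to day 8 missed the threshold in 8 of 17 settings, among them without day 3 (adjusted p = 0.0610), day 4 (0.0552), day 6 (0.0566) or day 7 (0.0766), and the rise from day 0 to day 8 in 4 of 16, at most at 0.0832. The second probe, ILMN_2396875, had 5.59 on day 4 and 11.17 on day 5, and an r of 0.996 with the first over 13 arrays.

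IGFBP6, a binding protein that prefers IGF2 over IGF1, fell and then rose above its starting level. Its log2 levels were 8.38, 7.34, 5.81, 5.88, 7.35, 9.22, 9.72, 9.86 and 10.37 on days 0 to 8. Days 2 and 3 were the low point and the levels of days 5 to 8 were all above day 0. The array of day 1 was 2.06-fold below day 0 and that of day 2 was 2.88-fold below day 1, followed by steps of 2.77-fold up on day 4 and 3.66-fold up on day 5. The fitted change was 2.84 ± 0.32 from day 4 to day 8 (adjusted p = 0.00112) and 1.62 ± 0.37 from day 0 to day 8 (adjusted p = 0.0126). From day 0 to day 4 it was -1.23 ± 0.32 (adjusted p = 0.0339), a fall that missed the threshold in 10 of 17 settings, among them without day 1 (0.0514), day 2 (0.0502), day 3 (0.0938), day 4 (0.0606) or day 6 (0.0568). The rise after day 4 passed in all 17, and that from day 0 to day 8 missed the threshold in 2 of 16, without background correction and with the submitters' normalized values (at most 0.0609). IGFBP3 and IGFBP6 had a Pearson r of 0.92 and a rho of 0.93 over the 9 days.

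IGFBP4 and IGFBP5 reached high levels earlier, by day 4. IGFBP4, which mostly restrains IGF action and is cut by the protease PAPPA, had 7.05, 6.80, 8.47, 8.93, 10.38, 9.67, 9.65, 9.29 and 9.23 on days 0 to 8. Day 4 was the highest day and each later day was below it but above days 0 to 3. Steps of 3.17-fold on day 2 and 2.73-fold on day 4 made up most of the rise, and the array of day 4 was 10.0-fold above day 0. The fitted change of IGFBP4 was 3.0 ± 0.49 from day 0 to day 4 (adjusted p = 0.00456) and 2.41 ± 0.56 from day 0 to day 8 (0.0137), and both passed in every setting tried. From day 4 to day 8 the array fell 2.22-fold, but the fitted change of -0.59 ± 0.49 did not pass (adjusted p = 0.533).

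IGFBP5, a binding protein that attaches to extracellular matrix and bone mineral, had 5.83 on day 0, was not detected on days 1 and 2, at 4.87 and 4.76, and then had 8.01, 9.36, 8.46, 8.88, 8.74 and 9.47 on days 3 to 8. The step on day 3 was at least 5.57-fold and that on day 4 was 2.54-fold, and all days from 3 on were above all days before. From day 0 to day 8 the fitted change was 3.91 ± 1.14 (adjusted p = 0.0332), and from day 0 to day 4 it was 2.99 ± 0.98 and did not pass (0.0744). The second IGFBP5 probe, ILMN_2132982, was not detected up to day 2 and passed over both intervals, with 3.77 (adjusted p = 0.0229) and 4.75 (0.0102), and its r with the first probe was 0.990. The IGFBP5 rise from day 0 to day 8 missed the threshold in 8 of 16 settings, among them without day 1 (0.0591), day 5 (0.0564), day 6 (0.0508) or day 7 (0.0506), and without day 2 that from day 0 to day 4 passed (0.0230). The IGFBP5 trend (adjusted p = 0.0138) was lost in 3 of 18 settings, without background correction, with the submitters' normalized values and with a robust prior (at most 0.0818). Over the 9 days IGFBP4 and IGFBP5 had a Pearson r of 0.85 and a rho of 0.73. IGFBP5 and IGFBP2 lie side by side on chromosome 2 in the RefSeq annotation, and over the days their r was -0.11.

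IGFBP2 and IGFBP7 had the smallest fitted changes from day 0 to day 8 among the 6 binding proteins. IGFBP2, a binding protein with a preference for IGF2 that is common in embryonic tissue, had 9.18, 8.72, 8.47, 8.47, 8.51, 8.67, 9.31, 8.83 and 8.26 on days 0 to 8, with day 6 highest and day 8 lowest. Its trend did not pass (adjusted p = 0.0682) and neither did its fitted change of -0.84 ± 0.29 from day 0 to day 8 (0.0635). Without day 5 the IGFBP2 trend passed (adjusted p = 0.0463). IGFBP7, a relative with low affinity for IGFs that is found in vascular basement membrane, had 6.46, 5.92, 5.58, 5.39, 5.35, 5.78, 6.25, 6.51 and 7.01 on days 0 to 8, and day 3 was not detected. It fell by 1.0 ± 0.19 from day 0 to day 4 (adjusted p = 0.00814) and rose by 1.54 ± 0.19 from day 4 to day 8 (0.00171), to end near its start, 0.53 ± 0.22 above day 0 (0.103). The fall of IGFBP7 to day 4 lies at the 2-fold limit and was under 2-fold in 3 of 17 settings, without day 4 among them (fall of 0.94, adjusted p = 0.0180). On days 3 and 4 its values were close to the floor.

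**Figure D3:**
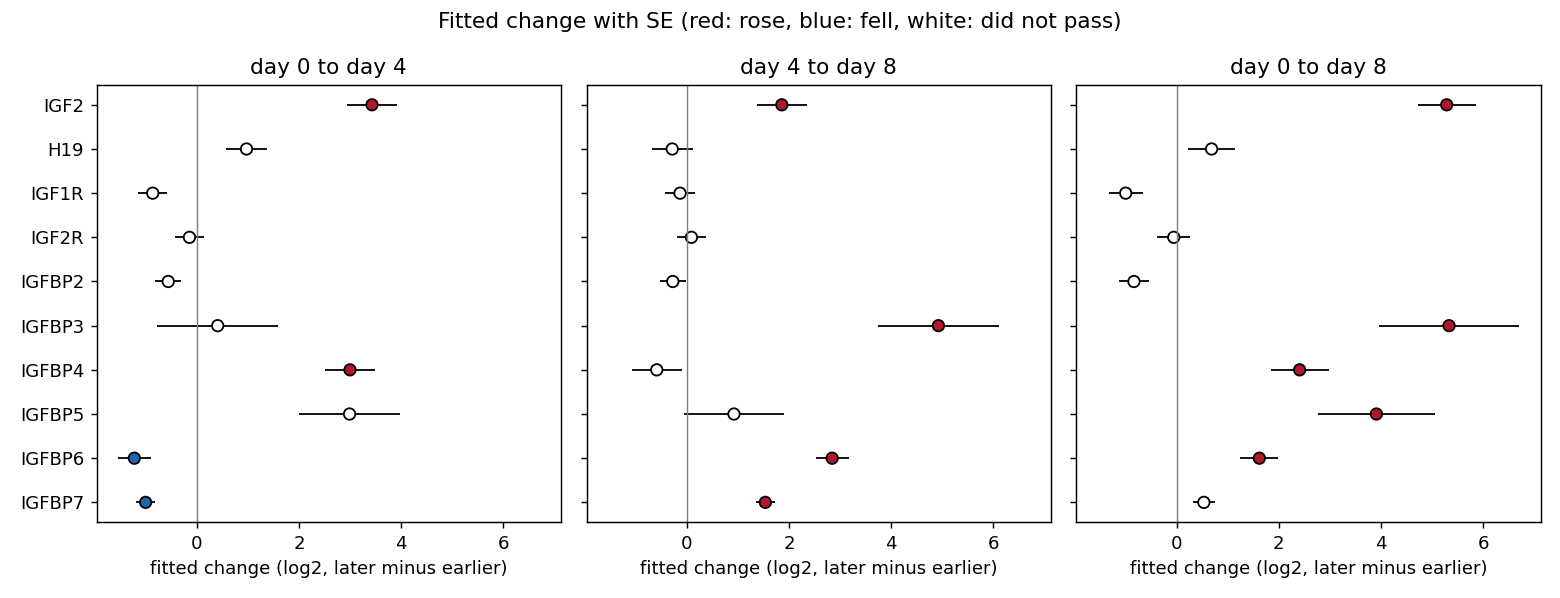
Fitted change with its SE for each gene over days 0 to 4, 4 to 8 and 0 to 8, in log2 units, later minus earlier. Red points rose and blue points fell (adjusted p below 0.05 and at least 2-fold), and white points did not pass. IGFBP3 and IGFBP5 have the widest errors, at 1.19 and 0.98 for the first interval.

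Steps of 2-fold or more between neighbouring arrays were confined to days 1 to 5 among these 10 genes. On day 1, 1 gene was higher and 1 lower than the day before, where 1.65% and 2.23% of genes were. On day 2, 1 was higher and 2 were lower (2.46% and 2.88% of all), and on day 3, 1 was higher and 0 were lower (3.12% and 2.21%). On day 4, 4 were higher and 0 lower (3.45% and 2.8%), and on day 5, 3 were higher and 0 lower (4.65% and 2.18%). IGF2 and IGFBP6 are in both of these last sets. On days 6, 7 and 8, 0 of the 10 were higher or lower, where 1.25%, 0.564% and 0.633% of genes were higher and 0.626%, 0.165% and 0.148% lower. Summed levels of markers of other cell types were higher on day 8 than on day 3. The summed linear level of the 7 mesenchyme markers was 2362 on day 3, 10841 on day 4, 22928 on day 5 and 39711 on day 8. That of the 7 endoderm markers was 934, 2618, 8778 and 50032. Not every mesenchyme marker rose throughout: PDGFRB had 9.97 on day 4 and 8.65 on day 8, and PDGFRA 11.76 on day 5 and 10.65 on day 8. The endoderm sum was 1770 on day 0, when AFP alone of its markers was detected, at 10.64. On days 3, 4, 5 and 8 the 7 endothelial markers summed to 448, 979, 3546 and 5026, and the 8 blood markers to 329, 309, 484 and 14620.5. The highest blood markers on day 8 were HBE1, at 13.37, and HBZ, at 11.80. RUNX1 had 6.53 on day 5 and 5.66 on day 8, and KLF1 5.79 and 5.44. GATA1 and ITGA2B were not detected on days 3 to 5 and had 5.35 and 5.82 on day 8. On days 3, 4, 5 and 8 the 5 markers of undifferentiated cells summed to 7877, 7421, 7829 and 3359. In that sum LIN28A stayed high, at log2 12.26, 12.38, 12.73 and 11.53, while POU5F1 had 10.09, 9.14, 7.56 and 5.50. DNMT3B had 10.50, 10.42, 9.62 and 8.23. On days 3 and 4 NANOG had 7.02 and 6.27 and SOX2 8.25 and 6.35, and neither was detected on day 5 or 8. The part of these cell types in the rises of IGF2, IGFBP3 and IGFBP6 was not tested.

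The day 7 fractions asked where in the culture these genes were expressed. Of the 10 genes 8 were detected in at least 1 fraction, and H19 and IGF1R were not detected in any. IGF2, IGFBP3 and IGFBP6 were highest in CD34- CD41- cells, followed in order by CD34lo CD41-, CD34hi CD41- and CD34lo CD41lo, while IGFBP2 and IGFBP4 were highest in CD34hi CD41- cells. The sort used CD34 and CD41 protein and none of these genes.

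IGF2 had 7.08 in CD34lo CD41lo, 7.50 in CD34hi CD41- and 9.33 in CD34lo CD41- cells, against 9.73 in CD34- CD41- cells. It was detected in all 4 and was 6.27-fold lower in CD34lo CD41lo cells and 4.67-fold lower in CD34hi CD41- cells than in CD34- CD41- cells. The CD34lo CD41- and CD34- CD41- fractions were 1.32-fold apart. The second IGF2 probe gave the same order, with 5.89, 6.43 and 8.24, against 8.65 in CD34- CD41- cells. INS-IGF2 had 4.98 in CD34lo CD41lo cells, not detected, then 5.98 in CD34hi CD41- and 7.96 in CD34lo CD41- cells, against 8.29 in CD34- CD41- cells. H19 values were 4.44, 4.49 and 5.05, against 5.26 in CD34- CD41- cells, all not detected.

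IGFBP3 had 6.16 in CD34lo CD41lo, 7.57 in CD34hi CD41- and 9.24 in CD34lo CD41- cells, against 10.60 in CD34- CD41- cells, and was 21.8-fold, 8.17-fold and 2.57-fold lower in these than in CD34- CD41- cells. The second IGFBP3 probe kept the order, with 5.71, 7.20 and 8.53, against 9.84. IGFBP6 was not detected in CD34lo CD41lo cells, at 5.12, and had 6.40 in CD34hi CD41- and 8.57 in CD34lo CD41- cells, against 9.97 in CD34- CD41- cells, which makes it at least 22.6-fold, 11.9-fold and 2.64-fold lower. Within the CD34+ fractions IGFBP6 was 4.49-fold lower in CD34hi CD41- than in CD34lo CD41- cells and IGFBP3 3.18-fold lower.

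IGFBP4 had 9.14 in CD34lo CD41lo, 11.75 in CD34hi CD41- and 10.47 in CD34lo CD41- cells, against 9.14 in CD34- CD41- cells. It was thus 6.11-fold higher in CD34hi CD41- and 2.52-fold higher in CD34lo CD41- than in CD34- CD41- cells, with no difference in CD34lo CD41lo cells (1.0-fold). IGFBP2 had 9.23, 10.94 and 9.15 in these fractions, against 8.52 in CD34- CD41- cells, and was 5.35-fold higher in CD34hi CD41- cells. The CD34hi CD41- array was the single high one for IGFBP2, and CD34lo CD41lo cells were 3.27-fold below it. IGFBP5 had 9.23, 9.11 and 8.55, against 7.68 in CD34- CD41- cells, so that it was 2.94-fold higher in CD34lo CD41lo and 2.70-fold higher in CD34hi CD41- cells. Its second probe put the difference between CD34lo CD41- and CD34- CD41- cells at 1.09 (log2), past 2-fold, where the first gave 1.84-fold.

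IGF2R had 9.67, 10.32 and 10.21, against 10.79 in CD34- CD41- cells, and was 2.18-fold lower in CD34lo CD41lo cells. IGFBP7 had 5.83, 5.77 and 6.44, against 6.33 in CD34- CD41- cells, and no pair of its fractions was 2-fold apart.

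**Figure D4:**
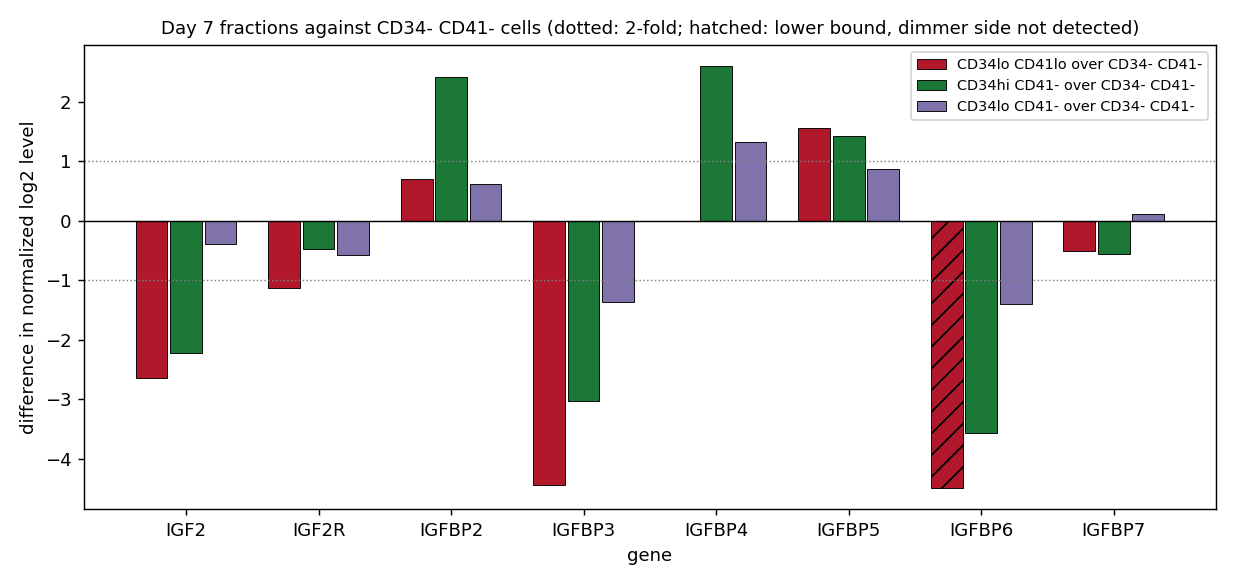
Difference in normalized log2 level of CD34lo CD41lo (red), CD34hi CD41- (green) and CD34lo CD41- (purple) cells from CD34- CD41- cells for the 8 genes detected in a fraction, from single arrays. Dotted lines mark 2-fold and hatching a lower bound. IGF2, IGFBP3 and IGFBP6 point down in all 3 fractions, IGFBP2 and IGFBP5 point up, and IGFBP4 has no visible bar for CD34lo CD41lo cells.

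Counted at 2-fold against CD34- CD41- cells, 1 of the 8 genes was higher and 4 were lower in CD34lo CD41lo cells, where 8.78% of genes were higher and 11.8% lower. In CD34hi CD41- cells 3 were higher and 3 lower (7.38% and 9.39% of genes), and in CD34lo CD41- cells 1 was higher and 2 were lower (2.83% and 4.53%). Between the CD34+ fractions, 2 were higher and 3 lower in CD34hi CD41- than in CD34lo CD41- cells (4.34% and 4.36%), 0 higher and 4 lower in CD34lo CD41lo than in CD34lo CD41- cells (2.96% and 6.26%), and 0 higher and 3 lower in CD34lo CD41lo than in CD34hi CD41- cells (5.78% and 7.78%). These comparisons share arrays, and each was read on its own. Markers of other cell types moved with the same fractions. The 7 mesenchyme markers summed to 2752 in CD34lo CD41lo, 6654 in CD34hi CD41- and 18507 in CD34lo CD41- cells, against 23411 in CD34- CD41- cells, with DCN not detected in CD34lo CD41lo and CD34hi CD41- cells. The 7 endoderm markers summed to 1341, 1181 and 18196, against 26578 in CD34- CD41- cells, with SERPINA1 and HNF4A not detected in CD34lo CD41lo and CD34hi CD41- cells. The endothelial sum was 5106, 25520 and 7290, against 1736 in CD34- CD41- cells, with all 7 markers detected in every fraction. The blood sum was 20725, 1040 and 6850, against 4212 in CD34- CD41- cells. In CD34- CD41- cells HBE1 and HBZ were its highest members, at 11.13 and 10.63, and ITGA2B, GATA1 and RUNX1 were not detected. RUNX1 went against the order of that sum, with 9.71, 8.70 and 8.20, against 4.90 in CD34- CD41- cells. ITGA2B and GATA1 were not detected in CD34hi CD41- cells either. The part of these cells in the differences of IGF2, IGFBP3, IGFBP6, IGFBP2 and IGFBP4 was not tested.

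IGFBP3 was also higher in the unsorted day 7 cells of the time course than in any sorted fraction. Unsorted day 7 cells had a level of 12.69, which is 2.09 (log2) above the highest fraction, CD34- CD41- cells. IGFBP3 was not alone in this: of 16449 genes, 140 (0.851%) were at least 2-fold above the highest fraction, and 0.231% were at least 2-fold below the lowest. The other 7 genes lay inside the range of the fractions or at most 0.13 above it, the largest excess being that of IGF2, at 9.86 in unsorted cells. Cells outside the 4 gates were not measured on their own. Whether the fractions were sorted from the culture of the unsorted day 7 array is not stated in the sources used here. Culture, sort and chip therefore cannot be told apart.

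The genes most like each member over the 13 arrays were read from 4030 genes that spanned at least 2 log2 units. IGF2 was followed most closely by LUM, which encodes the collagen-binding proteoglycan lumican (r = 0.994), SVEP1 (0.988), APOA1, the main protein of high-density lipoprotein (0.986), RBM20 (0.983) and GPRC5C (0.980). LUM is on the mesenchyme marker list and APOA1 on the endoderm one. IGFBP3 was followed by HOXC6 (0.970), CEBPD (0.967) and RERG (0.961), and IGFBP6 by COL22A1 (0.951), TPM1 (0.942) and the heparan sulphate proteoglycan gene GPC3 (0.942). IGFBP4 went with RDX (0.973), NECAP2 (0.973) and the VEGF coreceptor gene NRP1 (0.956), IGFBP2 with the Notch ligand gene JAG2 (0.947), RASSF2 (0.945) and NHERF2 (0.938), and IGFBP5 with COMMD3 (0.936), SERPINB6 (0.936) and PWWP3B (0.932). H19, IGF1R, IGF2R and IGFBP7 spanned under 2 log2 units and were not matched. All these values share 13 arrays, 1 line and 2 chips.

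Among genes that cut, mimic or assist the binding proteins, calls over the days were near the share of all tested. Of 11 on the list 7 were tested, and 1 rose from day 0 to day 8, where 11.8% of all tested rose: PAPPA, a secreted protease that cuts IGFBP4 and IGFBP5, by 1.63 ± 0.41 (adjusted p = 0.0192). PAPPA was not detected on days 0 to 3, had 6.02 on day 4, 5.23 on day 5, not detected, and then 6.02, 6.12 and 6.19 on days 6 to 8. Of the 7, 0 passed over the shorter intervals (6.28% of all tested rose and 5.92% fell to day 4, 4.94% and 2.64% after it), and the list's median change from day 0 to day 8 was 0.13, against -0.04 over all tested. In the fractions PAPPA was not detected in CD34lo CD41lo and CD34hi CD41- cells, at 5.10 and 4.65, and had 7.58 in CD34lo CD41- cells, against 8.18 in CD34- CD41- cells, at least 6.51-fold and at least 6.89-fold lower in the CD34lo CD41lo and CD34hi CD41- fractions. HTRA1, a serine protease that cuts IGFBP5 and is named here after its values were seen, was at least 20.8-fold and 3.75-fold lower in the same fractions than in CD34- CD41- cells. MMP9 and STC1, also named after their values were seen, were at least 13.9-fold and 4.88-fold higher in CD34hi CD41- cells. MMP9 was at least 2.32-fold higher in CD34lo CD41lo and at least 4.55-fold higher in CD34lo CD41- cells. Of the list, 1 gene was higher and 2 lower in CD34lo CD41lo cells among 6 measured (8.78% and 11.8% of all). In CD34hi CD41- cells 2 were higher and 2 lower among 7 (7.38% and 9.39%). In CD34lo CD41- cells 1 was higher among 6 (2.83%). Brightest probes were chosen separately for days and fractions, so levels of these genes are not to be set across the experiments.

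Of the 31 genes that relay the signal inside the cell, 27 were tested. Up to day 4, 3 rose and 6 fell, where 6.28% of all tested rose and 5.92% fell. From day 4 to day 8, 0 of 27 passed in either direction, beside 4.94% and 2.64% of all tested, shares at which few of 27 would be called. Over all days, 3 rose and 5 fell, beside 11.8% and 10.2%. The list medians were -0.10, 0.03 and -0.07. The 3 that rose over the first and the whole span were PIK3R1, the regulatory subunit of PI3 kinase, by 3.40 ± 0.45 and 3.24 ± 0.52 (adjusted p = 0.00188 and 0.00242), the docking protein gene IRS1 by 2.72 ± 0.42 and 2.73 ± 0.49 (0.00355 and 0.00386), and the kinase gene AKT1 by 1.06 ± 0.27 and 1.41 ± 0.31 (0.0306 and 0.0110). IRS1 had 5.90, 6.20, 7.23, 7.58, 9.21, 8.58, 8.42, 8.76 and 8.49 on days 0 to 8, and day 4 was its highest day. The falls of largest size to day 4 were changes of -1.89 ± 0.35 for the transcription factor gene FOXO1 (0.00778), -1.73 ± 0.28 for the phosphatase gene PHLPP1 (0.00434) and -1.41 ± 0.22 for IRS2, the other main docking protein (0.00404). To day 8 the falls of largest size were changes of -2.23 ± 0.35 for the adaptor gene GRB14 (0.00209), -2.03 ± 0.40 for FOXO1 (0.00643) and -1.82 ± 0.32 for PHLPP1 (0.00384). IRS1 and IRS2, which both link the receptor to PI3 kinase, thus moved in opposite directions up to day 4. The rise of AKT1 to day 4 missed the threshold in 8 settings, without day 1 (0.0507), day 3 (0.0615), day 4 (0.0503), day 6 (0.0537), day 7 (0.0546) or day 8 (0.0522) among them.

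Over the fractions IRS1 had the same order of levels as IGF2. IRS1 was not detected in CD34lo CD41lo cells, at 4.95, and had 5.50 in CD34hi CD41- and 8.31 in CD34lo CD41- cells, against 8.97 in CD34- CD41- cells, at least 11.3-fold and 11-fold lower in CD34lo CD41lo and CD34hi CD41- cells. GRB14 followed the same order, not detected at 5.21, then 6.06 and 6.83, against 8.38 in CD34- CD41- cells. FOXO1 had its highest level in CD34hi CD41- cells, with 7.35, 9.30 and 7.82, against 8.21 in CD34- CD41- cells. PIK3R1, AKT1, PHLPP1 and IRS2 were all under 2-fold apart between each fraction and CD34- CD41- cells. Of the list, 1 gene was higher and 4 were lower in CD34lo CD41lo cells among 26 measured (8.78% and 11.8% of all genes), and 4 were higher and 4 lower in CD34hi CD41- cells among 27 (7.38% and 9.39%).

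Among other imprinted genes 16 of 23 were tested, and their rises passed after day 4 or over all days. Up to day 4, 0 rose and 2 fell, where 6.28% of all tested rose and 5.92% fell. From day 4 to day 8, 3 rose and 0 fell (4.94% and 2.64% of all tested), and from day 0 to day 8, 5 rose and 2 fell (11.8% and 10.2%). The list medians were 0.49, 0.02 and 0.42. DLK1, a membrane protein related to Notch ligands, rose by 3.33 ± 0.55 after day 4 and by 5.18 ± 0.64 over all days (adjusted p = 0.00744 and 0.000681), and CDKN1C, an inhibitor of the cell cycle whose gene lies near IGF2, by 2.99 ± 0.59 and 4.72 ± 0.69 (0.0156 and 0.00152). DLK1 had 8.99, 8.50, 8.57, 10.01 and 11.75 on days 4 to 8, with its highest levels on days 7 and 8. The transcription factor gene PLAGL1, known in the mouse as a regulator of Igf2 and H19, was not detected up to day 4, had 6.16, 6.66, 6.85 and 6.77 on days 5 to 8, and rose by 1.52 ± 0.20 and 2.27 ± 0.23 (0.00271 and 0.000311). SNRPN fell by 1.33 ± 0.23 to day 4 and by 1.72 ± 0.26 to day 8 (0.00572 and 0.00188), and PHLDA2, also a neighbour of IGF2, by 1.41 ± 0.27 and 1.04 ± 0.31 (0.00868 and 0.0368), though it was detected on day 0 alone, at 6.0. The fall of PHLDA2 to day 8 missed the threshold in 7 settings, without day 2 (0.0512), day 5 (0.0635), day 6 (0.0570) or day 7 (0.0800) among them.

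Imprinted genes took different places in the fractions. CDKN1C was highest in CD34- CD41- cells, as IGF2 was, with 9.53 in CD34lo CD41lo, 8.45 in CD34hi CD41- and 10.37 in CD34lo CD41- cells, against 11.01. Its lowest level was in CD34hi CD41- cells, whereas that of IGF2 was in CD34lo CD41lo cells. DLK1 was highest in CD34lo CD41lo cells, with 11.44, 10.08 and 10.43, against 9.35 in CD34- CD41- cells, and 4.27-fold higher there. PLAGL1 was highest in CD34hi CD41- cells, with 7.93, 9.65 and 8.22, against 6.99 in CD34- CD41- cells, and 6.28-fold higher there, where IGF2 was 4.67-fold lower. Of 15 imprinted genes measured, 1 was higher and 5 were lower in CD34lo CD41lo cells than in CD34- CD41- cells (8.78% and 11.8% of all genes). In CD34hi CD41- cells 2 were higher and 4 lower (7.38% and 9.39%), and in CD34lo CD41- cells 2 were higher and 1 was lower (2.83% and 4.53%).

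**Figure D5:**
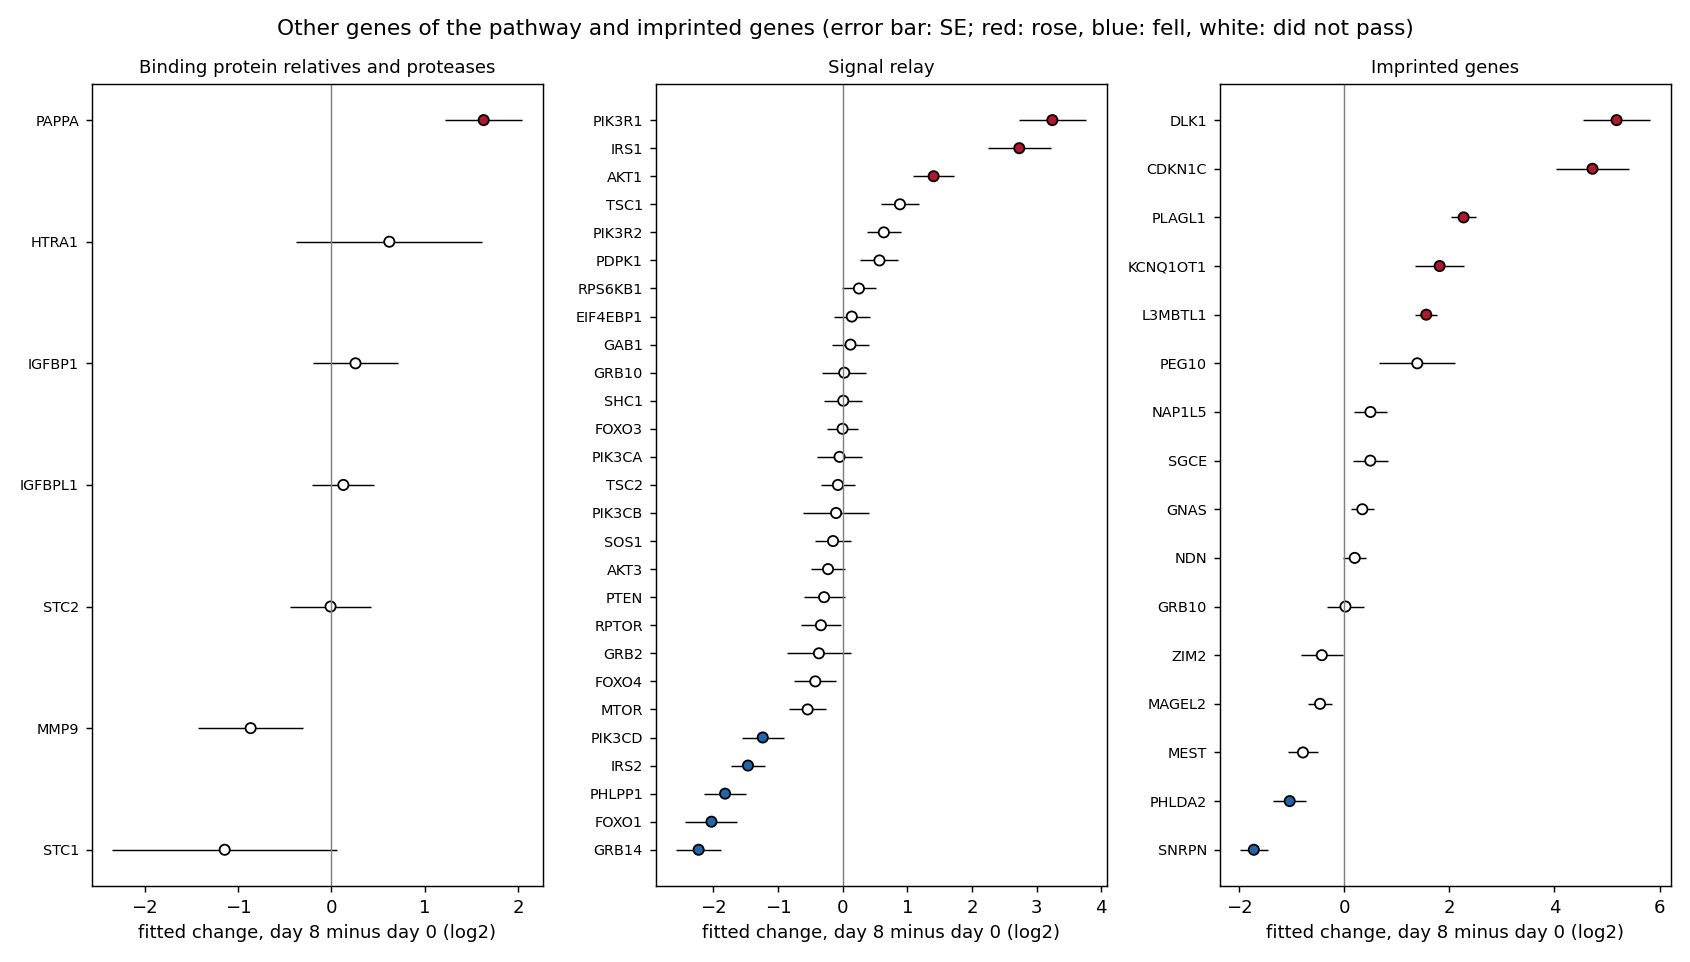
Fitted change from day 0 to day 8 with its SE, in log2 units, for the tested genes of the lists of binding protein relatives and proteases (left), signal relay (middle) and imprinted genes (right). Red points rose, blue points fell and white points did not pass. PAPPA is the only red point on the left, and DLK1 and CDKN1C, at 5.18 and 4.72, are the highest on the right.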

How the data were processed

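Per the labels' protocols, RNA from a Roche kit was turned into biotinylated cRNA (Ambion MessageAmp) and hybridised to 13 Illumina arrays. The submitters' processing notes name GenomeStudio 2010.2 and lumi, without their roles. The deposited intensities are not normalized and go down to -28.8, so a background had been subtracted before they were deposited, with array medians of 8.7 to 13.4. The deposited detection values, named so per the file headers, are fractions between 0 and 1 that rise with intensity, and 1 minus them was used as detection p. The submitters' log2 values in the deposited matrix, made by a transformation not stated in the sources used here, served as an alternative scale and to check the column names (rank correlation at least 0.999995 with the own column, at most 0.904 with another).

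The function neqc of limma 3.58.1 (R 4.3.3, offset 16) corrected background and quantile normalized the 13 arrays together. Of 47231 probes 1 lacked values and was dropped, 27035 had a current symbol, 4649 an updated one, 12276 an unmatched name and 3270 none. The brightest probe per gene detected (p below 0.01) on at least 1 array of an experiment was kept. A natural spline with 3 df was fitted over days (5 residual and 3.98 prior degrees of freedom, median residual SD 0.248), with Benjamini-Hochberg adjustment over 17657 features. A change was called at an adjusted p below 0.05 and 2-fold, and 8571 features had a trend p below 0.05 without adjustment. Differences between single arrays were counted at 2-fold, with an undetected side raised to its floor and the fold then given as at least that size. Genes outside the family were named as the up to 3 rises and 3 falls of largest fitted size per list and interval, and for likeness the top 5 for IGF2 and top 3 for other members spanning 2 log2 units. Members and lists were chosen with earlier results of these data known. Nothing in the labels says that the days came from separate cultures.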

Additional observations from a re-analysis of the deposited data

How the results depend on the processing

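With 1 array per day or fraction, departures from a smooth curve stand in for replicate error, and dim probes limit H19, IGF1R and IGFBP7. The number of members with a trend was 7 in the reported setting and 6 to 9 in all 18 alternatives. Members changed from day 0 to day 4 numbered 4 as reported, 2 without background correction and 3 to 4 with 1 day left out. From day 4 to day 8 they numbered 4 as reported, 2 without background correction, with the submitters' normalized values or with no filter on dim probes, and 2 to 3 with 1 day left out. From day 0 to day 8 they numbered 5 as reported, 2 without background correction or with the submitters' values, 3 with a robust prior with an intensity trend or with no filter, and 4 to 5 with 1 day left out. The cause of these losses was not tested. Of all tested, all genes that fell from day 0 to day 4 numbered 1046 as reported and 674 without background correction, and all genes that rose from day 4 to day 8 numbered 872 and 358. Over the 6 pairs of fractions, members were at least 2-fold apart in 26 instances, in 26 to 27 under the other scalings and in 13 at 4-fold. No fitted change of a member that passed changed sign. Among fitted changes of members 445 of the recomputed values stayed on their side of the threshold, 46 lost a call and 6 gained one, and 221 differences between fractions held while 7 moved, 6 of them of IGFBP6 in CD34lo CD41lo cells, where it was not detected. No paired analysis was possible because there was 1 array for each condition and no replicate number links samples.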
